A study of Caenorhabditis elegans with 12 samples.

Results

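Synaptic vesicle release was followed through 10 genes, namely rab-3, aex-3, rbf-1, unc-10, unc-13, unc-18, unc-64, snb-1, ric-4 and snt-1. They were taken by name as SNARE, RAB-3 pathway and active zone genes, and the platform annotation gave them 20 probe sets, out of 22548 probe sets tested and 17118 genes in all. Of these genes, 2 had 1 probe set, 6 had 2 and 2 had 3. Levels and differences are on the log2 scale of the deposited values, so that a difference of 1 is 2-fold. Levels are compared for 1 probe set across arrays and never between genes, since probe sets differ in brightness.

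The study measured Caenorhabditis elegans embryonic cells on 12 Affymetrix arrays, 3 for each of 4 groups: GFP+ and GFP- cells from mir-124 mutant embryos, and GFP+ and GFP- cells from wild-type embryos. GFP was driven by the mir-124 promoter, from a transgene that had been injected at 5 ng/µl with a lin-15 rescue plasmid into lin-15(n765) worms, integrated by X-rays and outcrossed 2 times into N2; the protocol text is the same for all 4 groups. The sources used here do not name the mir-124 allele. Worms were grown at 20 °C, cells from dissociated embryos stayed in culture for 24 hours before they were sorted by GFP, and RNA from 500000 cells per sample was amplified before labelling. GFP marks the cells in which the mir-124 promoter was active, and the GFP- cells are all others, among them any neurons without the reporter. The design text calls the triplicates biological; separate cultures or sorting days are not stated, so a p-value covers only the spread between these arrays.

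A neuron releases transmitter when a vesicle docked at the active zone fuses with the plasma membrane. The vesicle carries the SNARE synaptobrevin, which zippers with the plasma membrane SNAREs syntaxin and SNAP-25, and UNC-18 and UNC-13 prepare syntaxin for this step. The GTPase RAB-3 sits on the vesicle and binds the scaffold protein UNC-10 at the active zone, and synaptotagmin triggers fusion when calcium enters. RAB-3 and its partners are typical of neurons, whereas SNARE proteins also serve secretion in other cells.

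Values of the 2 arrays labelled wild-type replicate 3 stood apart and are given wherever results rest on them. The array labelled wild-type GFP- replicate 3 correlated at r = 0.977 with wild-type GFP+ replicate 3 over the probe sets tested, against 0.893 and 0.903 with replicates 1 and 2 of its own group. The mean level of 16 ciliated sensory neuron markers lay between 7.78 and 8.15 in mutant GFP+ cells, against 4.67 to 4.84 in mutant GFP- cells. It was 7.65 to 8.34 in wild-type GFP+ cells, and in wild-type GFP- cells it was 4.62, 4.79 and, for replicate 3, 8.26. The mean of 14 body wall muscle markers lay between 7.45 and 7.90 in mutant GFP+ cells, against 9.70 to 10.41 in mutant GFP- cells. It was 7.52 to 7.76 in wild-type GFP+ cells, and in wild-type GFP- cells 10.33, 9.66 and, for replicate 3, 7.49. On control RNAs, the excess of the 3' over the middle probe sets averaged 4.36 for wild-type GFP+ replicate 3 and 4.19 for wild-type GFP- replicate 3, and 1.82 to 2.62 on the other 10 arrays. Results are therefore given over 12 arrays and again over the 10 arrays without that pair, with no sample imputed.

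Most release genes were higher in GFP+ than in GFP- cells of the mutant. Over 12 arrays 8 of 10 passed the test there, with an adjusted p under 0.05 from limma, with Benjamini-Hochberg adjustment, against 6.36% of all genes higher in the same comparison. These were aex-3, rab-3, rbf-1, snt-1, unc-10, ric-4, unc-13 and unc-18, with rises between 2.0-fold and 5.99-fold. The v-SNARE gene snb-1 and the syntaxin gene unc-64 did not pass. The median difference of the 10 genes was 1.67, beside 0.009 for all genes. Over 10 arrays the same count was 8 of 10, beside a background of 14.3%.

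In wild-type cells the count depended on the replicate 3 pair. Over 12 arrays 0 of 10 genes passed the limma test, where 0% of all genes were called higher, and 6 had an unadjusted p under 0.05, beside 12.8% of all genes in either direction. Over 10 arrays the 8 genes that passed in the mutant passed in wild-type, beside 8.78% of all genes. The median difference of the 10 genes was 0.95 over 12 arrays and 1.41 over 10 arrays, and over all genes it was 0.009 and -0.024. The list of 12 neuron markers, none of which is among the 10 genes, moved with them: its mean level lay between 9.06 and 9.34 in mutant GFP+ cells, against 7.28 to 7.67 in mutant GFP- cells. It was 8.71 to 9.19 in wild-type GFP+ cells, and in wild-type GFP- cells 7.52, 7.48 and, for replicate 3, 8.74. Its part in the result was not tested. In sorted bulk samples, fewer cells of a type and less RNA per cell cannot be told apart.

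**Figure D1:**
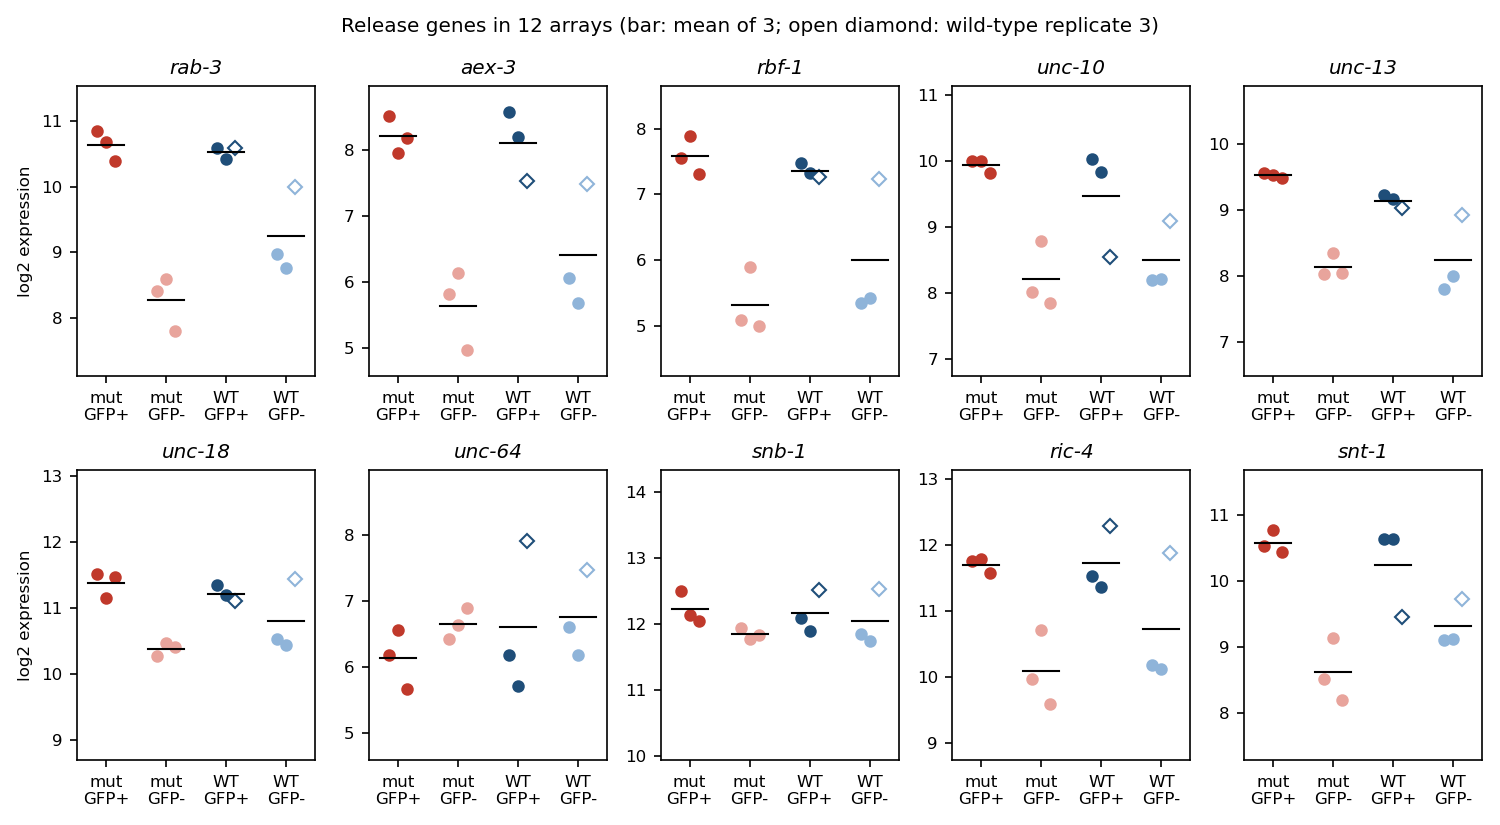
Log2 level (vertical axis) of the representative probe set of each of the 10 genes, 1 panel per gene, in mutant GFP+, mutant GFP-, wild-type GFP+ and wild-type GFP- cells; each point is 1 array, bars are means of 3 arrays, and open diamonds are the wild-type replicate 3 arrays. The mutant GFP+ points lie above the mutant GFP- points for all genes except unc-64, and the open diamond in wild-type GFP- lies above the other 2 points in all 10 panels.

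Results are given first for the RAB-3 pathway, which held the 3 largest mutant differences when each gene was read by its brightest probe set. The second probe sets of rab-3 and aex-3 gave 1.40 and 1.79, below 2.28 for the second of ric-4. rab-3 encodes the small GTPase of the synaptic vesicle membrane. Its level was 10.84, 10.68 and 10.38 in mutant GFP+ cells and 8.42, 8.60 and 7.81 in mutant GFP- cells. For wild-type it was 10.58, 10.41 and 10.59 in GFP+ cells and 8.98, 8.76 and 10.00 in GFP- cells. The groups did not overlap in either strain, and wild-type GFP- replicate 3 was the high value of its group. The mutant difference was 2.36 ± 0.31 (SE, n = 3 arrays per group), which is 5.13-fold, with a limma adjusted p of 0.0117. Here and below, an SE over 12 arrays rests on the spread within all 4 groups, the wild-type replicate 3 pair included. On the 6 mutant arrays alone the SE of rab-3 was 0.232. The wild-type difference was 1.28 ± 0.31 over 12 arrays (adjusted p = 0.248, limma) and 1.63 ± 0.256 over 10 arrays (adjusted p = 0.00255, limma, 3.09-fold).

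aex-3 encodes the exchange factor that loads RAB-3 with GTP. Its level was 8.52, 7.95 and 8.18 in mutant GFP+ cells and 5.82, 6.13 and 4.96 in mutant GFP- cells. Wild-type cells read 8.58, 8.20 and 7.53 in GFP+ cells and 6.06, 5.68 and 7.49 in GFP- cells. The mutant groups lay far apart, while the lowest GFP+ and the highest GFP- value of wild-type were the replicate 3 pair, 0.04 apart. The mutant difference of 2.58 ± 0.471 (5.99-fold, limma adjusted p = 0.0146) was the largest among the brightest probe sets of the 10 genes. In wild-type the difference was 1.69 ± 0.471 over 12 arrays (adjusted p = 0.255, limma) and 2.52 ± 0.354 over 10 arrays (adjusted p = 0.0014, limma).

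rbf-1 encodes rabphilin, which binds RAB-3 on the vesicle. Its level was 7.55, 7.89 and 7.31 in mutant GFP+ cells and 5.09, 5.90 and 5.00 in mutant GFP- cells. The wild-type values were 7.48, 7.32 and 7.26 in GFP+ cells and 5.35, 5.43 and 7.23 in GFP- cells. Replicates 1 and 2 of wild-type GFP- lay with the mutant GFP- values and replicate 3 lay just under the GFP+ values. Between the mutant fractions the difference was 2.25 ± 0.446 (4.76-fold, limma adjusted p = 0.0168). Wild-type cells differed by 1.35 ± 0.446 over 12 arrays (adjusted p = 0.301, limma) and 2.01 ± 0.294 over 10 arrays (adjusted p = 0.00171, limma, 4.03-fold).

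Of the active zone and priming genes, unc-10, unc-13 and unc-18 all rose in GFP+ cells of the mutant. unc-10 encodes RIM, the active zone scaffold that RAB-3 binds. Its level was 10.00, 10.00 and 9.82 in mutant GFP+ cells and 8.01, 8.78 and 7.84 in mutant GFP- cells. For wild-type it was 10.03, 9.83 and 8.54 in GFP+ cells and 8.19, 8.21 and 9.09 in GFP- cells. The wild-type groups overlapped, and the replicate 3 pair ran the other way, with GFP+ below GFP-. In the mutant the difference was 1.73 ± 0.402 (3.31-fold, limma adjusted p = 0.0251), and that of wild-type was 0.97 ± 0.402 over 12 arrays (adjusted p = 0.374, limma) and 1.73 ± 0.267 over 10 arrays (adjusted p = 0.00228, limma).

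unc-13 encodes the priming factor that opens syntaxin for SNARE assembly. Its level was 9.56, 9.53 and 9.48 in mutant GFP+ cells and 8.03, 8.34 and 8.05 in mutant GFP- cells. Wild-type cells read 9.22, 9.16 and 9.03 in GFP+ cells and 7.80, 7.99 and 8.93 in GFP- cells. All 3 GFP+ values exceeded all 3 GFP- values in each strain, and by 0.1 in the replicate 3 pair. The mutant difference was 1.38 ± 0.247 (2.61-fold, limma adjusted p = 0.0142), and that of wild-type was 0.90 ± 0.247 over 12 arrays (adjusted p = 0.254, limma) and 1.29 ± 0.147 over 10 arrays (adjusted p = 0.000395, limma).

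unc-18 encodes the Sec1/Munc18 protein that binds syntaxin. Its level was 11.51, 11.15 and 11.47 in mutant GFP+ cells and 10.27, 10.46 and 10.41 in mutant GFP- cells. The wild-type values were 11.34, 11.19 and 11.11 in GFP+ cells and 10.53, 10.43 and 11.43 in GFP- cells. The highest wild-type value was the GFP- replicate 3 array, so that these groups overlapped. With 1.00 ± 0.236 (2.0-fold, limma adjusted p = 0.0265) unc-18 had the smallest mutant difference among the 8 genes that passed. In wild-type the difference was 0.42 ± 0.236 over 12 arrays (adjusted p = 0.51, limma) and 0.79 ± 0.157 over 10 arrays (adjusted p = 0.00867, limma).

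The 3 SNARE genes differed from each other in what the arrays showed. ric-4 rose in mutant GFP+ cells, while snb-1 and unc-64 passed in neither strain in the fits over 12 and 10 arrays. With the replicate number as a block over 10 arrays, snb-1 passed in the mutant. ric-4 encodes SNAP-25, a plasma membrane SNARE. Its level was 11.75, 11.78 and 11.57 in mutant GFP+ cells and 9.97, 10.70 and 9.58 in mutant GFP- cells. In wild-type the level was 11.52, 11.36 and 12.29 in GFP+ cells and 10.18, 10.12 and 11.87 in GFP- cells, where both replicate 3 arrays were the high ones. Between the mutant fractions the difference was 1.62 ± 0.461 (3.07-fold, limma adjusted p = 0.0471), and with the replicate number as a block the adjusted p was 0.0529. Over 10 arrays the adjusted p was 0.00109 in the mutant, and in wild-type the difference was 1.29 ± 0.296 (adjusted p = 0.0171, limma), against 1.00 ± 0.461 (adjusted p = 0.424, limma) over 12 arrays.

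snb-1 encodes synaptobrevin, the SNARE of the vesicle. Its level was 12.51, 12.14 and 12.05 in mutant GFP+ cells and 11.95, 11.77 and 11.83 in mutant GFP- cells. Wild-type cells read 12.10, 11.90 and 12.52 in GFP+ cells and 11.85, 11.75 and 12.53 in GFP- cells. Every mutant GFP+ value exceeded every mutant GFP- value, but by little. In the mutant the difference was 0.38 ± 0.231, with a 95% interval of -0.13 to 0.89 (limma adjusted p = 0.333), and over 10 arrays the interval was 0.06 to 0.70 (adjusted p = 0.0752, limma). With the replicate number as a block the adjusted p was 0.0304 over 10 arrays and 0.275 over 12 arrays (limma). The second snb-1 probe set did not pass with that block over 10 arrays (adjusted p = 0.249, limma). Wild-type cells differed by 0.13 ± 0.231 over 12 arrays and 0.20 ± 0.173 over 10 arrays, with a 95% interval of -0.19 to 0.59 in the 10.

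unc-64 encodes syntaxin 1A, the plasma membrane SNARE that UNC-18 and UNC-13 act on, and was the only 1 of the 10 genes with a lower mean in GFP+ than in GFP- cells. Its level was 6.18, 6.56 and 5.67 in mutant GFP+ cells and 6.42, 6.64 and 6.89 in mutant GFP- cells. The wild-type values were 6.18, 5.72 and 7.91 in GFP+ cells and 6.61, 6.19 and 7.48 in GFP- cells. The groups overlapped in both strains, and the replicate 3 pair held the 2 highest values of the gene. The mutant difference was -0.51 ± 0.519, with a 95% interval of -1.66 to 0.64 (limma adjusted p = 0.607). In wild-type the difference was -0.16 ± 0.519 over 12 arrays and -0.45 ± 0.298 over 10 arrays, with a 95% interval of -1.12 to 0.22 in the 10. A single probe set, ending in _s_at, measured this gene, so no other reading of it was at hand.

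snt-1 encodes synaptotagmin 1, the calcium sensor of the vesicle. Its level was 10.53, 10.78 and 10.44 in mutant GFP+ cells and 8.52, 9.14 and 8.20 in mutant GFP- cells. For wild-type it was 10.64, 10.65 and 9.46 in GFP+ cells and 9.11, 9.13 and 9.74 in GFP- cells. The mutant groups were more than 1 apart, and in wild-type the replicate 3 pair ran against the other arrays. Between the mutant fractions the difference was 1.96 ± 0.346 (3.9-fold, limma adjusted p = 0.0142), and that of wild-type was 0.93 ± 0.346 over 12 arrays (adjusted p = 0.34, limma) and 1.53 ± 0.262 over 10 arrays (adjusted p = 0.00394, limma).

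**Figure D2:**
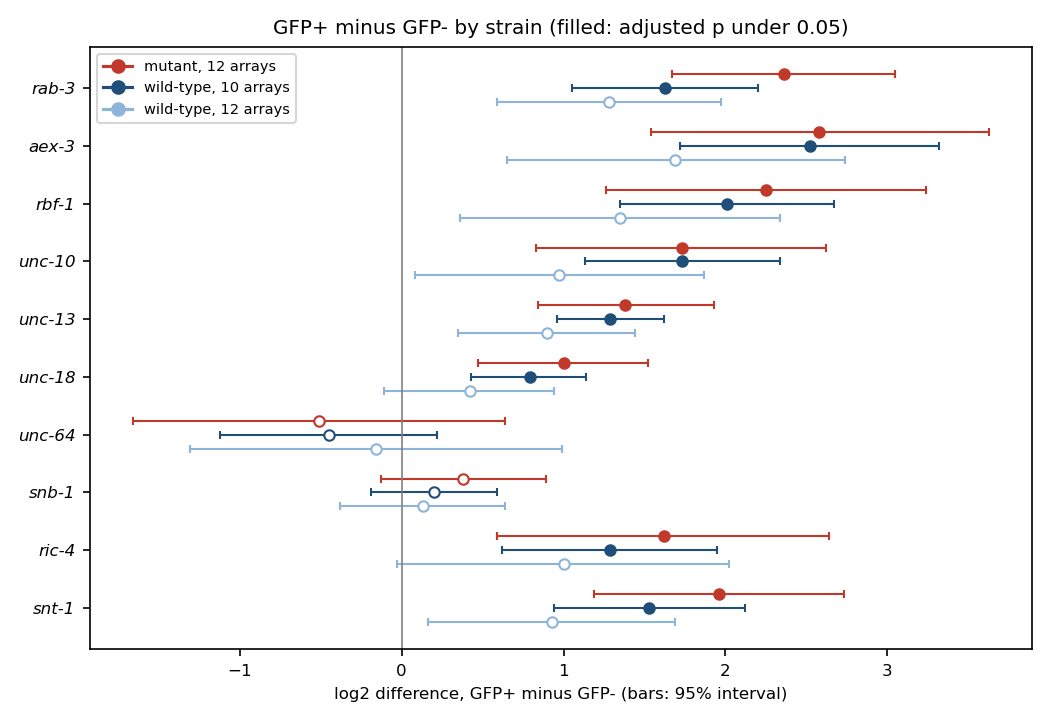
Log2 difference of GFP+ minus GFP- cells (horizontal axis) for each of the 10 genes, with 95% intervals from limma, in the mutant over 12 arrays, in wild-type over 10 arrays and in wild-type over 12 arrays; filled points have an adjusted p under 0.05. The 8 filled genes are the same in the mutant and in wild-type over 10 arrays, no wild-type point over 12 arrays is filled, and snb-1 and unc-64 lie nearest to or below 0.

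In decreasing order of the mutant difference of the brightest probe set the genes ran aex-3, rab-3, rbf-1, snt-1, unc-10, ric-4, unc-13, unc-18, snb-1 and unc-64. Over 12 arrays the 95% intervals of neighbours in this order overlapped at every step. Over 10 arrays those of unc-18 (0.71 to 1.29), snb-1 (0.06 to 0.70) and unc-64 (-1.06 to 0.04) did not overlap. Among the other genes neighbours still overlapped, so the order from step to step is not settled. The interval of unc-13 (1.11 to 1.65) lay below those of rbf-1 (1.71 to 2.79), rab-3 (1.89 to 2.83) and aex-3 (1.93 to 3.23). All 3 GFP+ values exceeded all 3 GFP- values for 9 of 10 genes in the mutant, which also held for 21% of all genes. In wild-type this held for 4 of 10 genes over 12 arrays, namely rab-3, aex-3, rbf-1 and unc-13, beside 5.58% of all genes. Over 10 arrays it held for 9 of 10 genes in wild-type, beside 26.9% of all genes with 2 arrays per group. Between same-numbered arrays the mutant difference of rab-3 was 2.42, 2.09 and 2.57, and that of aex-3 was 2.70, 1.83 and 3.22. For aex-3 in wild-type it was 2.52, 2.52 and 0.04.

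The sizes of the mutant differences held when arrays were left out, while the number that passed over 12 arrays moved with the calls over all genes. Without 1 mutant array at a time the difference lay between 2.13 and 2.52 for rab-3, between 2.24 and 2.83 for aex-3, between 1.75 and 2.22 for snt-1 and between 0.93 and 1.11 for unc-18. From 12 arrays, 0 of 10 genes passed without mutant GFP+ replicate 1, where 0.00584% of all genes were higher, with adjusted p values of the 8 genes between 0.0518 and 0.122 (limma). Likewise 0 of 10 passed without mutant GFP+ replicate 2, with 0% of all genes higher and adjusted p values between 0.0558 and 0.134. Without mutant GFP- replicate 3 the count was 0, with 0.0292% of all genes higher and adjusted p values between 0.051 and 0.158. It was 3 without mutant GFP+ replicate 3, beside 1% of all genes, and 2 without mutant GFP- replicate 1, beside 0.87%. The 8 genes passed on the 6 mutant arrays alone, beside 12.2% of all genes. In each fit that left 1 mutant array out of the 10, 8 of 10 passed, beside 11.1% to 14% of all genes. In wild-type, leaving out only wild-type GFP- replicate 3 gave 6 of 10 genes. That count has no share of all genes beside it and is not read as a result about these genes.

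The 20 probe sets allowed a second look at 8 of the genes. In the mutant 16 of 20 passed over 12 arrays, and those that did not were the unc-64 probe set, both snb-1 probe sets and 1 of 3 unc-10 probe sets. That unc-10 probe set read 3.75, 3.84 and 4.23 in mutant GFP+ and 3.42, 3.57 and 3.72 in mutant GFP- cells, and lay below the lower quartile of the array on 10 of 12 arrays. The other 2 unc-10 probe sets differed by 1.73 and 1.76. The 3 unc-13 probe sets differed by 1.38, 1.41 and 1.58 and the 2 unc-18 probe sets by 1.00 and 0.97, each within the error of the other. The sizes lay further apart for rab-3, with 2.36 and 1.40, for aex-3, with 2.58 and 1.79, and for ric-4, with 1.62 and 2.28. In wild-type over 10 arrays 15 of 20 passed, the second rab-3 probe set missing the threshold with 1.06 (adjusted p = 0.0503, limma), and passing with the replicate block (adjusted p = 0.0146). The dim unc-10 probe set passed in the mutant over 10 arrays only with that block (0.37, adjusted p = 0.0327 against 0.101 without it). Of the 20 probe sets, 9 end in _s_at and 2 in _x_at, which means that they can also bind other transcripts.

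**Figure D3:**
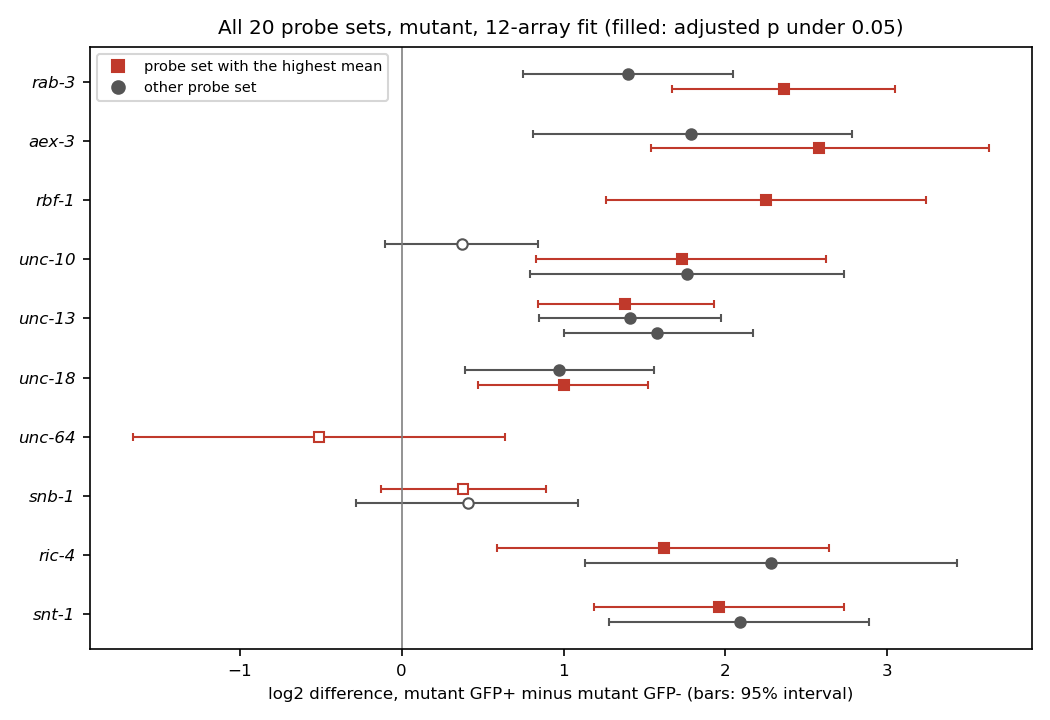
Log2 difference of GFP+ minus GFP- cells in the mutant (horizontal axis, limma over 12 arrays, 95% intervals) for all 20 probe sets, grouped by gene; filled points have an adjusted p under 0.05. The 16 filled probe sets belong to 8 genes, and the open ones are unc-64, both snb-1 probe sets and the dim unc-10 probe set.

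The replicate 3 pair differed from the other wild-type arrays in ways that were not the same for all 10 genes. On wild-type GFP+ replicate 3 the representative probe set lay below replicates 1 and 2 for 6 genes and above them for 4, which were rab-3, ric-4, snb-1 and unc-64. On wild-type GFP- replicate 3 it lay above replicates 1 and 2 for 10 of 10 genes, and over all probe sets for 19 of 20. Relative to the mean of replicates 1 and 2, GFP+ replicate 3 was 1.96 higher for unc-64, and fell by 1.39 for unc-10 and by 1.19 for snt-1. The second bright unc-10 probe set was 0.23 higher there, so 2 probe sets of 1 gene went opposite ways. GFP- replicate 3 was 1.84 higher for rbf-1, 1.72 for ric-4 and 1.63 for aex-3. The gap between 3' and middle control probe sets, and the sensory and muscle markers, moved with this pair, and their part in these values was not tested.

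Loss of mir-124 was examined by setting mutant against wild-type in each GFP fraction. In GFP+ cells 0 of 10 genes passed over 12 or 10 arrays, where 0.0175% and 0.0234% of all genes were called by limma. At an unadjusted p under 0.05 the count was 0 of 10 over 12 arrays, beside 1.08% of all genes, and 1 of 10 over 10 arrays, beside 3.16%. That 1 gene was unc-13, which read 9.56, 9.53 and 9.48 in mutant GFP+ cells and 9.22, 9.16 and 9.03 in wild-type GFP+ cells. The groups did not overlap, as for 2.85% of all genes that were higher in the mutant. The difference was 0.38 ± 0.247 over 12 arrays (95% interval -0.16 to 0.93) and 0.33 ± 0.134 over 10 arrays (95% interval 0.03 to 0.63), each with a limma adjusted p of 1. The other 2 unc-13 probe sets were 0.59 and 0.45 higher over 12 arrays, with an adjusted p of 1 each. Over 10 arrays they were 0.32 and 0.29 higher, and neither passed.

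For the other 9 genes the mutant minus wild-type difference in GFP+ cells over 10 arrays ran between -0.17 for aex-3 and 0.26 for ric-4. Its 95% interval reached from -0.90 to 0.56 for aex-3 and from -0.34 to 0.87 for ric-4, so that changes within these limits were not excluded. For unc-10 the difference was 0.01 (95% interval -0.54 to 0.56) and for snt-1 it was -0.06 (95% interval -0.60 to 0.48). Over 12 arrays the 10 genes spanned -0.47 for unc-64 to 0.47 for unc-10, against 0.19 for unc-64 and 0.01 for unc-10 over 10 arrays, so the sizes over 12 rest on wild-type GFP+ replicate 3. The median of the 10 genes was 0.16 over 10 arrays, beside 0.014 for all genes.

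In GFP- cells, too, 0 of 10 genes passed between the strains, where 0.0234% of all genes were called over 12 arrays and 0.0175% over 10. At an unadjusted p under 0.05 the count was 1 of 10 in each fit, beside 5.06% of all genes over 12 arrays and 5.51% over 10. That gene was rab-3, which read 8.42, 8.60 and 7.81 in mutant GFP- cells and 8.98, 8.76 and 10.00 in wild-type GFP- cells. The groups did not overlap, as for 4.07% of all genes that were lower in the mutant. The difference was -0.97 ± 0.31 over 12 arrays (adjusted p = 0.822, limma) and -0.59 ± 0.234 over 10 arrays (adjusted p = 0.878, limma). The second rab-3 probe set overlapped between the strains, with 6.75, 7.37 and 6.33 in mutant GFP- and 6.93, 7.24 and 7.82 in wild-type GFP- cells. Over 10 arrays the other genes lay between -0.50 for snt-1 (95% interval -1.04 to 0.04) and 0.25 for unc-64 (95% interval -0.37 to 0.86).

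**Figure D4:**
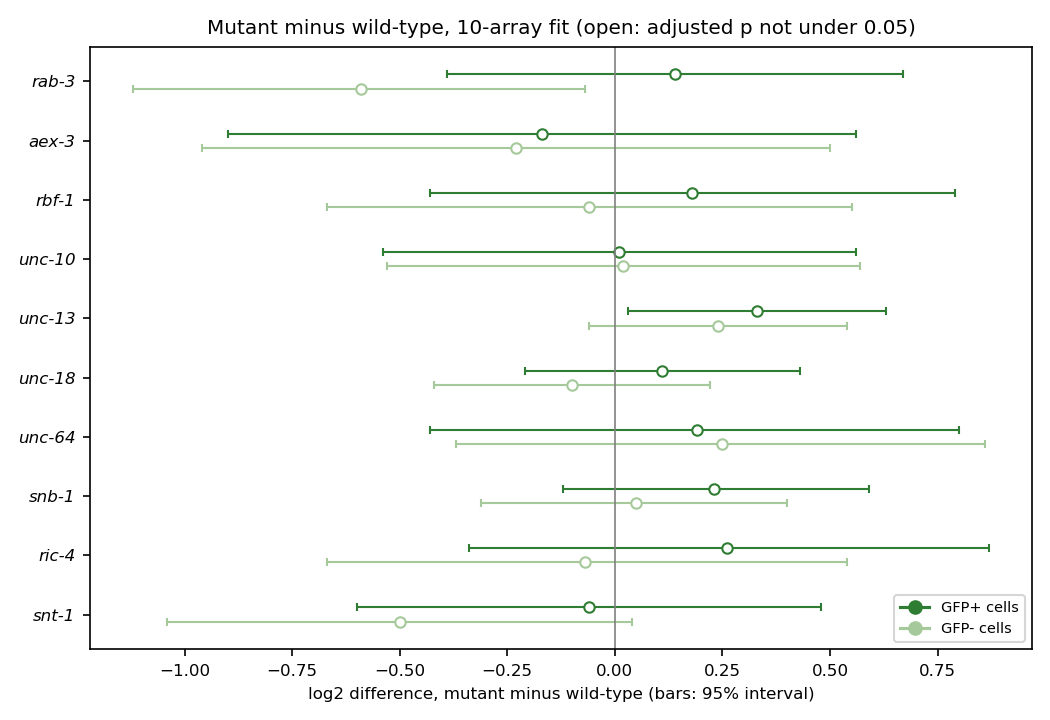
Log2 difference of mutant minus wild-type (horizontal axis, limma over the 10 arrays without the wild-type replicate 3 pair, 95% intervals) for the 10 genes, in GFP+ and in GFP- cells. In GFP+ cells the interval of unc-13 alone leaves out 0, with 0.03 to 0.63, and in GFP- cells that of rab-3 alone does, and none of the 10 genes has an adjusted p under 0.05.

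Whether the GFP+ minus GFP- difference itself was larger in the mutant was tested as an interaction. None of the 10 genes passed in either fit, where 0% of all genes were called over 12 arrays and 0% over 10. For rab-3 the interaction was 1.08 ± 0.438 over 12 arrays (95% interval 0.11 to 2.05, limma adjusted p = 1), the only member under an unadjusted p of 0.05, beside 1.51% of all genes. Over 10 arrays it was 0.73 ± 0.331 (95% interval -0.01 to 1.48), and at that unadjusted p the count was 0 of 10, beside 1.24% of all genes. The replicate number was also set as a block shared by both strains. Over 10 arrays the 95% interval of rab-3 was then 0.27 to 1.20 around the same 0.73 (unadjusted p = 0.00664, adjusted p = 1, limma). The count was 1 of 10, beside 2.66% of all genes. This block takes the numbers to pair the strains as well, which was not shown in GFP- cells. Over 12 arrays the interval with the shared block was -0.02 to 2.17. With the blocks set within each strain, the rab-3 interval was 0.30 to 1.85 over 12 arrays (adjusted p = 0.908, limma). Over 10 arrays it was 0.26 to 1.20, in a fit chosen after seeing the data. The second rab-3 probe set had intervals of -0.26 to 1.56 and -0.41 to 1.10 in these 2 fits. Over 10 arrays the other genes lay between -0.06 for unc-64 and 0.43 for snt-1 (95% interval -0.33 to 1.20). For aex-3 it was 0.06 with a 95% interval of -0.97 to 1.09. The 8 genes thus passed in the mutant over 12 arrays and not in wild-type over 12 arrays, but the difference between the strains itself passed for none of the 10.

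Other genes of synaptic release were read from 6 lists of 116 genes, of which 109 were measured. In the mutant over 12 arrays 35 of 109 were higher in GFP+ cells, beside 6.36% of all genes, 1 was lower, beside 6.6% of all genes, and 73 did not pass. The median difference was 0.64. Over 10 arrays 58 were higher and 3 lower in the mutant, beside 14.3% and 14.6% of all genes. In wild-type over 10 arrays 42 were higher and 1 lower, beside 8.78% and 8.07%. The shares of all genes given here are the background for each list that follows. Over 12 arrays 0 of 109 passed the limma test in wild-type, and 36 had an unadjusted p under 0.05, beside 12.8% of all genes. Between the strains 0 of 109 passed in either fit, and over 10 arrays 2 had an unadjusted p under 0.05 in GFP+ cells, beside 3.16% of all genes, and 6 in GFP- cells, beside 5.51%, so neither count exceeded that over all genes. For the interaction 0 of 109 passed in either fit, and 2 had an unadjusted p under 0.05 over 10 arrays, beside 1.24% of all genes.

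Vesicle proteins and regulators of release had 6 of 17 measured genes higher in mutant GFP+ cells and 0 lower over 12 arrays, against 6.36% of all genes higher, with a median of 1.40. Over 10 arrays it was 10 of 17. The largest rise was that of rgs-3, a regulator of G protein signalling, with 4.86 ± 0.903. cpx-1, a complexin that clamps SNARE complexes, rose by 2.01 ± 0.561. unc-104, the kinesin that carries synaptic vesicle precursors, rose by 1.91 ± 0.509, and tom-1, the tomosyn that inhibits priming, by 1.64 ± 0.475 (limma adjusted p between 0.0151 for rgs-3 and 0.0489 for tom-1). Active zone scaffolds and calcium channels had 8 of 19 higher and 0 lower over 12 arrays, with a median of 0.96, and 14 of 19 higher over 10 arrays. cla-1, the clarinet scaffold, rose by 2.19 ± 0.535, the neurexin nrx-1 by 2.00 ± 0.488, the calcium channel subunit unc-2 by 1.64 ± 0.449 and the synapse assembly gene syd-1 by 1.62 ± 0.40.

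Endocytosis and recycling genes had 6 of 16 higher and 0 lower over 12 arrays, beside 6.36% of all genes higher, with a median of 0.58, and 10 of 16 higher over 10 arrays. The stonin gene unc-41 rose by 1.67 ± 0.372, the clathrin adaptor gene apa-2 by 1.08 ± 0.17, the synaptojanin gene unc-26 by 1.05 ± 0.225 and the dynamin gene dyn-1 by 1.00 ± 0.175 (limma adjusted p between 0.0133 for apa-2 and 0.0226 for unc-41). Of the vesicular transporters 2 of 8 rose, the glutamate transporter eat-4 by 3.12 ± 0.616 and the monoamine transporter cat-1 by 1.90 ± 0.461. Over 10 arrays 4 of 8 were higher and 1 lower, and the lower one, named after its value was seen, was vglu-2 with -1.03 ± 0.285 (adjusted p = 0.025, limma). G protein signalling genes that tune release had 9 of 19 higher and 0 lower over 12 arrays, with a median of 0.64, and 11 of 19 higher over 10 arrays. The protein kinase C genes pkc-2 and pkc-1 rose by 1.99 ± 0.339 and 1.38 ± 0.261, the phospholipase C gene egl-8 by 1.39 ± 0.26 and the protein kinase A gene kin-1 by 1.39 ± 0.345.

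Paralogues of the SNAREs and synaptotagmins had 4 of 30 higher and 1 lower over 12 arrays, beside 6.36% and 6.6% of all genes, with a median of 0.15. This list also held vps-45, which is a Sec1/Munc18 gene like unc-18 and not a SNARE gene. It held tag-180 too, a calcium channel subunit gene, so its counts are not of such paralogues alone. Over 10 arrays 9 were higher and 2 lower, beside 14.3% and 14.6% of all genes. The 4 that rose over 12 arrays were all synaptotagmin paralogues: snt-6 by 3.31 ± 0.794, snt-4 by 1.79 ± 0.338, snt-5 by 1.54 ± 0.43 and snt-7 by 1.54 ± 0.319. The lower one, named after its value was seen, was the syntaxin paralogue syx-4, with -1.21 ± 0.201 (limma adjusted p = 0.0133). The adjusted p of the 4 that rose lay between 0.0156 for snt-4 and 0.0438 for snt-5. The 5 that rose over 10 arrays only, named after their values were seen, were ykt-6 with 1.24 ± 0.21, tag-180 with 1.07 ± 0.176, vps-45 with 0.70 ± 0.198, syx-2 with 0.65 ± 0.203 and syx-5 with 0.53 ± 0.137, and syx-16 fell there by 0.95 ± 0.232. No test set 1 list against another.

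**Figure D5:**
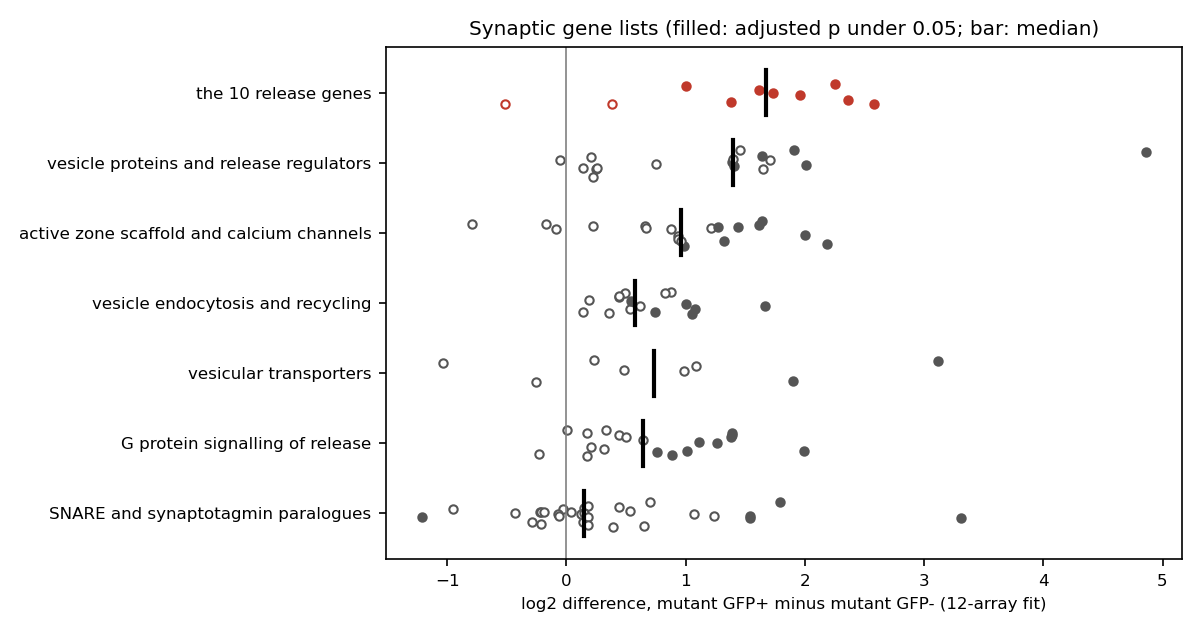
Log2 difference of GFP+ minus GFP- cells in the mutant (limma over 12 arrays) for the 10 release genes and for the genes of 6 related lists, 1 point per gene, filled where the adjusted p is under 0.05, with a bar at each median. The median is 1.67 for the 10 release genes, 1.40 for vesicle proteins and regulators and 0.15 for SNARE and synaptotagmin paralogues.

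Across arrays the genes did not all follow the same profile. The mean of the 10 genes, each centred on its own mean over 10 arrays, gave a profile with a GFP+ minus GFP- difference of 1.48 in the mutant and 1.25 in wild-type. The root mean square difference from this profile was 0.142 for ric-4, 0.177 for unc-13 and 0.205 for unc-10, and 0.982 for unc-64, which ranked 13847 of 17118 genes. Since each member enters the mean, its own likeness is partly built in, and the profile follows the sort. The 5 genes outside the set with the most similar profile over the 10 arrays were arrd-17 with 0.0861, ZK287.1 with 0.107, unc-41 with 0.124, zfh-2 with 0.125 and arrd-18 with 0.131. The median over all genes was 0.734.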

How the data were processed

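Each array had 1 deposited log2 expression value per probe set. Per the submitters' processing notes the tools were affy, limma, RMA and MAS5, with no version and no order, so it is not settled which of them the authors used for the deposited log2 values. The build is not stated there. Array medians lay between 5.395 and 5.513 and no further scaling was applied, so a shift common to all transcripts would not be seen. The number of arrays limits the precision. Of 22625 probe sets, 77 controls were set aside. The platform annotation gave 20766 probe sets 1 gene, 887 several and 895 none; members were matched by symbol, and 0 symbols changed on lookup in RefSeq WBcel235. Each of 17118 genes was counted through the brightest of its single-gene probe sets by mean over arrays.

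Tests used limma 3.58.1 in R 4.3.3: a mean per group over 12 arrays, eBayes, 2-sided, Benjamini-Hochberg adjustment over 22548 probe sets and a threshold of 0.05. The fit was repeated over 10 arrays, and it was tested on simulated data. Same-numbered GFP+ and GFP- arrays were taken as pairs: their deviations from group means correlated at 0.36, 0.435 and 0.359 in the mutant and at 0.485, 0.41 and 0.418 in wild-type. Between the strains same-numbered arrays correlated at 0.278, 0.185 and 0.229 in GFP+ cells. In GFP- cells the values were 0.232, -0.0696 and -0.0294, so pairing of the strains was not shown there. The wild-type and between-strain values include the wild-type replicate 3 pair. No value was taken without that pair or for differently numbered arrays. Alternatives were the replicate block, arrays in the fit, normalization, a filter on the dimmest 25%, the variance model, the mean over probe sets of a gene, and leaving out each array.

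All 10 members are named. Of each of 6 lists, up to 4 called genes with the largest mutant difference are named, and the 5 genes most like the members' mean by root mean square difference. The members and lists were chosen with earlier results of these data known. Marker lists for neurons, ciliated neurons, body wall muscle, pharyngeal muscle, intestine, hypodermis, glia, coelomocytes and germline precursors were fixed by name; the neuron list shares snn-1, sng-1, ric-19, unc-31 and unc-104 with the lists of related genes. Figures used matplotlib 3.10.9.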

Additional observations from a re-analysis of the deposited data

How the results depend on the processing

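The mutant count of 8 genes passing became 7 with the replicate block, without ric-4, and 9 with the replicate block over 10 arrays, where snb-1 passed (0.38, adjusted p = 0.0304, limma), and 9 with a further quantile normalization (snb-1 0.59, adjusted p = 0.0226). Leaving out 1 array gave 0 to 8 genes, and the cause was not tested. The wild-type count of 0 became 8 over 10 arrays, beside 8.78% of all genes. It was also 8 over 10 arrays with the replicate block or with it within strain, a block chosen after seeing the data. With array weights it was 8, and leaving out 1 array gave 0 to 8. Shares of all genes are not given for the blocks, the further normalization, the array weights or the wild-type fits without 1 array. Those counts are therefore not read as a result about these genes. The wild-type contrast thus rests on the replicate 3 pair, and here too the cause was not tested. For the strain contrasts and the interaction the count was 0 under every alternative run, the replicate block included. Of 1650 values set against the 12-array fit, 0 calls turned direction and 144 values changed sign without being called: 5 for wild-type GFP+ minus GFP-, for unc-64 and snb-1, 59 for mutant minus wild-type in GFP+, 60 in GFP- and 20 for the interaction. Of the probe sets that do not represent their gene, the block over 10 arrays added 1 of rab-3 in wild-type and 1 of unc-10 in the mutant, and within strain over 12 arrays it took 1 of aex-3 in the mutant (adjusted p = 0.0523). It changed no other call among the 20 probe sets. The median residual SD was 0.289 over 12 arrays and 0.206 over 10.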

Other observations

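The remaining marker lists were read on the mutant arrays, as mean log2 levels over replicates 1, 2 and 3. Coelomocyte markers, 4 scavenger cell genes, read 5.73, 5.82 and 5.75 in GFP+ cells and 7.96, 8.36 and 8.54 in GFP- cells. Intestinal markers, 12 genes, read 5.35, 5.36 and 5.43 in GFP+ cells and 6.40, 6.80 and 6.82 in GFP- cells. Hypodermal markers, 11 genes, read 6.30, 5.76 and 6.55 in GFP+ cells and 7.99, 7.12 and 8.61 in GFP- cells. In each of these 3 lists the lowest GFP- mean lay above the highest GFP+ mean, opposite to the release genes. Pharyngeal muscle markers, 6 genes, read 8.11, 7.82 and 7.74 in GFP+ cells and 8.73, 8.98 and 8.36 in GFP- cells. Germline precursor markers, 8 genes, read 5.43, 5.40 and 5.19 in GFP+ cells and 6.21, 6.27 and 6.30 in GFP- cells. The lowest GFP- mean lay above the highest GFP+ mean in the pharyngeal and germline lists as well. Glial markers overlapped between the fractions, with 6.32, 6.26 and 6.42 in GFP+ cells and 6.51, 6.21 and 6.35 in GFP- cells over 8 measured genes. By gene, in the mutant, limma over 12 arrays called 3 of 4 coelomocyte, 4 of 12 intestinal, 5 of 11 hypodermal, 0 of 6 pharyngeal, 3 of 8 germline and 1 of 8 glial markers lower in GFP+ cells, beside 6.6% of all genes, and 1 intestinal marker higher. Over 10 arrays it called 3, 7, 6, 4, 4 and 2 lower in the same order, beside 14.6% of all genes. It called 1 intestinal and 2 glial markers higher there, beside 14.3% of all genes, so the glial calls were split evenly.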
